A study of Brassica rapa subsp. pekinensis with 6 samples.

Results

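Small RNAs of Chinese cabbage (Brassica rapa subsp. pekinensis) seeds were matched by the authors to miRBase, the public registry of microRNAs (miRNAs), and the entries described here are the matches whose miRBase number is 1000 or more, apart from Brassica-lineage numbers, CCA-ending tRNA-like names and miR2111, which the selection rule leaves out. They made up 139 of the 889 distinct mature sequences in the table. The 139 sequences stood on 211 rows under 153 names, covered 41 numbers and carried the species prefixes of 17 plants. The rule uses names only, although members were chosen with earlier results of these data known. By count 2 numbers led. Of the sequences, 38 sequences were named MIR6300, from soybean (gma), and 30 were named MIR6478, from poplar (ptc). The reads of 1 sequence were often divided over 2 rows, so rows were added and each sequence was counted once.

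All seeds were of 1 double haploid line, FT, and germinated on wet filter paper. The Ver group was 3 libraries of seeds that were then vernalized, that is, kept at 4 °C in the dark for 25 days. The Nor group was 3 libraries of germinated seeds kept at room temperature, also in the dark, for about 48 h. The methods of the study name each culture dish as a biological repetition and state that sampling took place when both groups had reached the same length. Temperature and duration differed together, and their parts cannot be told apart. In bulk tissue, fewer cells of a type and less RNA per cell cannot be told apart.

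A plant miRNA is cut from a hairpin precursor by a Dicer-like enzyme and guides an Argonaute protein to complementary transcripts, and bases 2 to 8 from its 5′ end are called the seed. The families shared widely among land plants mostly carry low numbers in miRBase. Numbers of 1000 and above were registered later and mostly from 1 species or lineage. Some of those later entries were found to lie in structural RNA. The miR6300 sequence is the start of plant tRNA-Asp, the miR6478 sequence is the start of plant tRNA-Tyr, and miR5368 lies in the large ribosomal RNA of organelles. This is background knowledge and no reference was used here here against which to check it. Reads of tRNA and rRNA families had been filtered by the authors before matching, and these entries are those that were left.

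The sequences that carried most of the reads or the largest differences are shown first, each with its seed in capitals. Names with L or R give bases lost or gained at the left (5′) or right (3′) end relative to the miRBase sequence. In names, ss gives substitutions, and p5 or p3 is a label for an arm that miRBase does not hold. The same sequence can carry both labels at different positions of the genome, as that of ath-MIR8176-p5 does. The label is thus not evidence of a hairpin arm.
gma-MIR5368-p3_2ss2AT19CA: gTGAGATAccactctggaagagct
bra-miR5654a: aTAAATCCcaagcatcatcca
bra-MIR5654a-p3_2ss6GT19TC: aTGATTCTtgggatttatctt
osa-miR5083_L+1_1ss21AT: cAGACTACaattatctgatct
zma-MIR2275b-p3_2ss3AG18AT: cAGCTGAAccatcatcttt
vvi-miR3630-3p_L-1_1ss2TA: aTGGGAATctctctgatgcac
gma-miR6300_R+5: gTCGTTGTagtatagtggtaagt
gma-miR6300_L-1R+1: tCGTTGTAgtatagtggt
aly-MIR4234-p3_2ss8AG23TC: aTTATGGGcttccaacttaaaacc
osa-MIR2931-p3_2ss5TA18AT: tATAAATAtattgatatt
osa-MIR2931-p3_2ss4TA19TC: aTAAATATattgatatacc
gra-MIR8709a-p3_1ss13CG: aCATATAAttctgaattt
sly-MIR1919a-p3_2ss6TC18GT: tAATTCGAattcaatgttgtag
The 139 sequences held 82 distinct seeds. The seed CGACCTT was shared by 17 MIR6478 sequences and TCGTTGT by 6 MIR6300 sequences.

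Only 1 of the 211 rows, bra-miR5654a, matched miRBase exactly. Another 68 rows differed from the miRBase sequence in length or by a substitution, and 142 rows were labelled as an arm that miRBase does not list. The table assigns each row to a class, and 199 rows (94.3%) were in the class gp2b. In this class the precursor of the other species was not found in the B. rapa genome although the read itself was, and the genome sequence around the read may not fold into a hairpin. The same class held 28.5% of the 487 other rows matched to miRBase. The median folding free energy listed was -18.4 kcal per mol for the 211 rows and -50.7 for the other 487. A free energy of -15 kcal per mol or less together with a hairpin of at least 50 nt was listed for 53.1% and 87.5% of rows. The 2 arms of bra-miR5654a, the only rows in the class of known B. rapa precursors found in the genome, had a listed free energy of -71.8 kcal per mol.

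The table held 589061 to 771529 reads per Ver library and 749852 to 968483 reads per Nor library, and these totals cover reads matched to miRNAs only. A value of 0 was read as at most 5 reads, although 32 of the 557 nonzero sums of members were below 5. Ver 3 stood apart in 1 respect. Among the 139 sequences, 30 differed by 1 base from a more abundant sequence of the same length, and 13 of these differed at base 9 from the 5′ end. The 13 had 15, 0 and 624.5 reads in Ver 1 to 3, against 16, 3.5 and 20 reads in Nor 1 to 3, and 12 of them had over 50% of their reads in Ver 3. None of the 17 variants at other positions did. The largest was a variant of the 23-nt miR6478, substitution A9C, with 382 reads in Ver 3 and 0 in the other 5 libraries. It is shown under its more abundant form, with base 9 in capitals.
ptc-miR6478_R+2_1ss21GA: ccgaccttAgctcagttggtaga
ptc-miR6478_R+2_2ss9AC21GA: ccgaccttCgctcagttggtaga
The variant amounted to 39.5% of the reads of the form above it in Ver 3. The same held over the whole table, where 17 of 18 base 9 variants and 0 of 80 variants at other positions had over 50% of their reads in Ver 3. The base was singled out after its values were seen. Results are also given without Ver 3 where it changed them, and without it 35 members were called in place of 36.

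**Figure D1:**
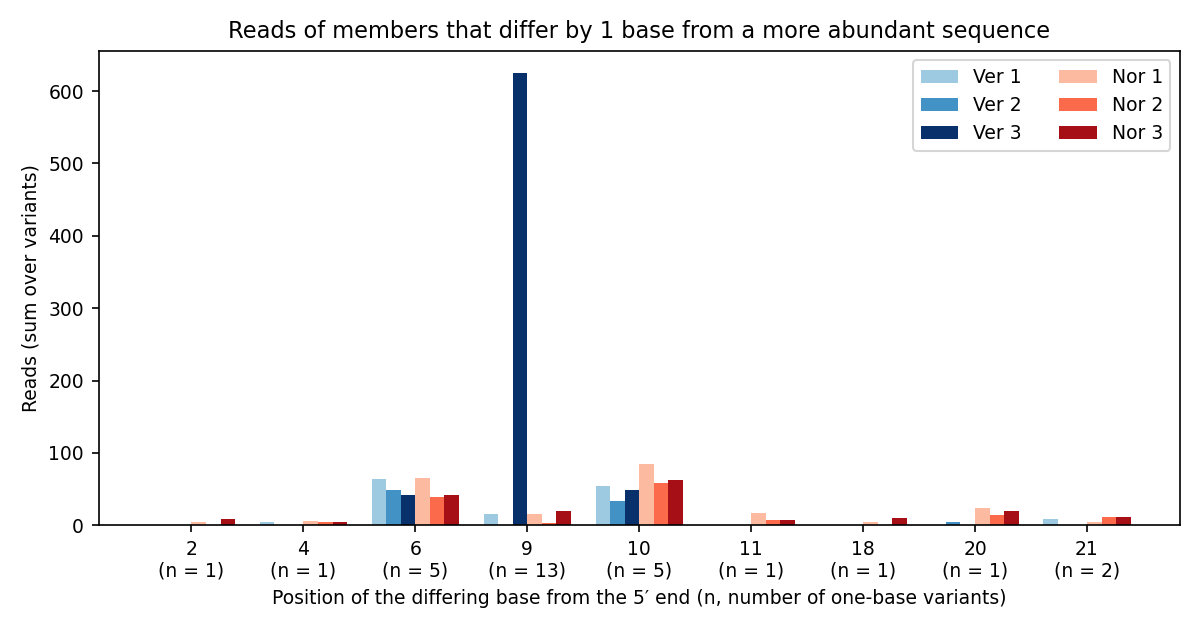
Reads of the sequences numbered 1000 and above that differ by 1 base from a more abundant sequence of the same length, summed by the position of that base (x axis, counted from the 5′ end) for each library (y axis, reads; blue bars Ver 1 to 3, red bars Nor 1 to 3). Position 9 held 624.5 reads in Ver 3 and at most 20 reads in any other library.

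The 139 sequences together took 2.66 to 3.04% of the reads of a library. Their share was 2.80, 3.04 and 2.68% in Ver 1 to 3, against 2.66, 2.66 and 2.69% in Nor 1 to 3. The means were 2.84 ± 0.185% in Ver and 2.67 ± 0.0181% in Nor (SD, n = 3 each, p = 0.2 in a two-sided exact permutation test, where 3 against 3 cannot go below 0.1). The difference of 0.169 percentage points was 0.0688 without Ver 2 and 0.252 without Ver 3, and without Ver 3 the groups did not overlap. As a share of the valid reads of the study the members took 0.258 to 0.291% in Ver and 0.243 to 0.251% in Nor, which did not overlap (exact permutation p = 0.1). The 95% Wilson interval was widest for Ver 2, at 2.998 to 3.086%, and covers counting error only. Without the most abundant member the shares were 2.06 ± 0.115% in Ver and 2.02 ± 0.00266% in Nor (SD, n = 3 each, p = 0.9 in the same exact permutation test). The reads were concentrated in few sequences: the top 10 held 72.8% of them, while 64 of 139 averaged under 10 reads per 1000000 reads of the table (RPM). Of the entries described above as lying in structural RNA, MIR5368 held 29.3%, MIR6478 16.3% and MIR6300 14.04%. MIR5654 was above MIR6300, with mean summed levels of 5529 RPM in Ver and 3445 RPM in Nor, against 4881 and 3073 RPM. It was above MIR6478 in Ver (4600 RPM) and below it in Nor (4376 RPM). Many MIR6300 sequences carried identical values, and with each set of identical values counted once, a choice made after seeing the data, MIR6300 held 6.71%, MIR5368 31.8% and MIR6478 17.7%.

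Reads were found for 88 to 95 of the sequences in each Ver library and for 89 to 102 in each Nor library. In total 26 were seen in Ver only, 23 in Nor only, 89 in both and 1 (gma-MIR1520a-p3_2ss8TG18AT) in no library. Most of the sequences seen in a single group were scarce, and 15 of the 26 were in a single Ver library, which was Ver 3 for 11. Without the 13 base 9 variants, a choice made after seeing the data, 16 sequences were in Ver only. Other members named with a base 9 substitution, such as gma-MIR6300-p3_1ss9AC_1, lacked a more abundant match of the same length and were not left out. Just 6 sequences were in all 3 Ver libraries and no Nor library, and 7 were in all 3 Nor libraries and no Ver library. All 6 libraries held reads of 61 sequences.

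The make-up of the reads differed by the plant in whose name they were registered. Sequences with a legume prefix took 50.6 ± 1.69% of the members' reads in Ver and 41.0 ± 0.597% in Nor (SD, n = 3 each). Brassicaceae prefixes took 20.1 ± 0.465% in Ver and 15.4 ± 0.879% in Nor. Grass prefixes took 5.97 ± 0.675% in Ver and 15.5 ± 1.04% in Nor, and the other plants 23.3 ± 0.726% in Ver and 28.1 ± 0.372% in Nor. For each of these 4 classes the libraries of the groups did not overlap, and the exact permutation p was 0.1, the smallest that 3 against 3 allows, or 0.118 after Benjamini-Hochberg adjustment over 13 classes. With each detected sequence counted once in place of its reads, the Brassicaceae difference was -3.22 percentage points, the reverse of 4.66 by reads. A prefix names where an entry was first registered and not the origin of the RNA, and shares of one total move together. Legume reads were mostly MIR5368 and MIR6300, Brassicaceae reads mostly miR5654, and grass reads mostly miR5083 and MIR2275.

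**Figure D2:**
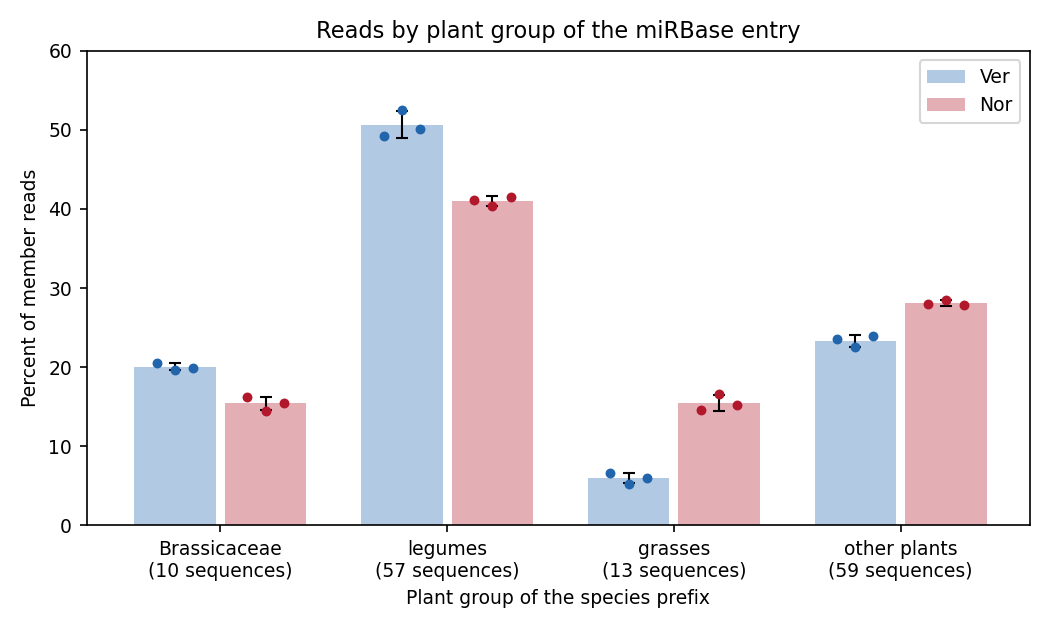
Percent of the reads of the 139 sequences (y axis) that fell on entries of each plant group (x axis), with Ver in blue left of Nor in red. Bars are means, error bars are SD of 3 libraries and points are libraries. Legume entries took 50.6% in Ver and 41.0% in Nor, and grass entries 5.97% and 15.5%.

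By length, 23-nt members took 13.1 ± 1.33% of the reads in Ver and 10.5 ± 0.681% in Nor, and 21-nt members took 32.0 ± 1.15% in Ver and 36.3 ± 0.561% in Nor (SD, n = 3 each, exact permutation p = 0.1 for both, 0.118 adjusted over the 13 classes). Only 3 members ended in CCA, the end that is added to mature tRNA. They took 17.7 ± 0.684% in Ver and 12.1 ± 0.891% in Nor, and their most abundant sequence was bra-miR5654a, shown above, whose last bases are CCA. With each detected sequence counted once, the differences of the 21-nt and CCA classes also reversed, to 1.25 and -1.33 percentage points.

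For single sequences the question was which of them differed between Ver and Nor. The test was the quasi-likelihood test of edgeR, fitted on all 405 sequences of the table with enough reads, and called at a Benjamini-Hochberg adjusted p under 0.05. It called 247 of the 405, which is 61.0%. Of the 139 members 70 had enough reads, and 36 were called, 18 higher and 18 lower in Ver. Called higher were 28.1% and called lower 32.8% of all sequences tested. The share of members called, 51.4%, was thus below the 61.0% of the whole table. All 36 had libraries that did not overlap between groups, as had 40 of the 70 tested members and 71.6% of all tested sequences. The median log2 fold change, Ver over Nor, was 0.11 for the members and -0.19 for all tested. Because some sequences carried identical values, the 36 calls rested on 31 distinct sets of values, 13 higher and 18 lower. Of the calls, 22 were over 2-fold on the fitted scale and 7 were of sequences with at most 5 reads in every library of one group. The other 69 members did not pass the filter of the test, which asks for reads in enough libraries. Their highest library held a median of 9 reads, and the exception in depth was the miR6478 variant with 382 reads in Ver 3 alone.

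**Figure D3:**
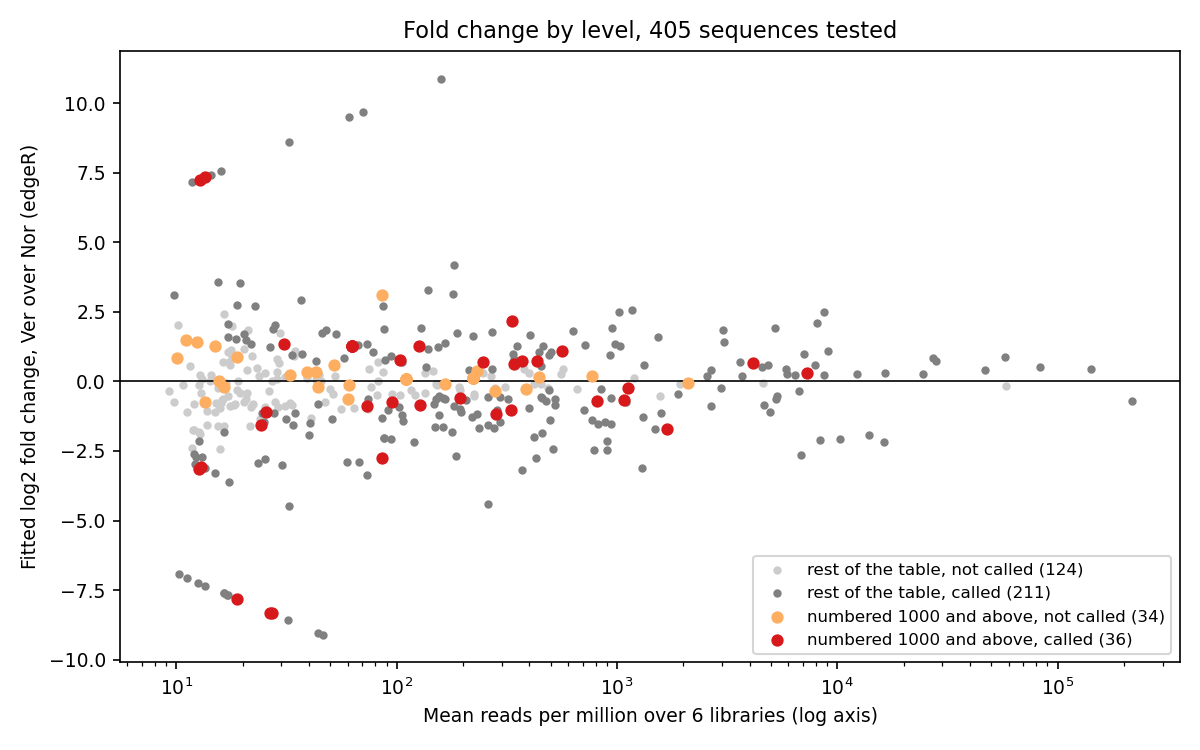
Fitted log2 fold change, Ver over Nor (y axis), against mean RPM over the 6 libraries (x axis, log scale) for the 405 sequences tested with edgeR, each point a sequence. Larger red points are the 36 called members, larger orange points the 34 members not called, and grey points the rest of the table. Red points lie on both sides of 0, 18 higher and 18 lower in Ver.

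The most abundant member was gma-MIR5368-p3_2ss2AT19CA, a 24-nt sequence. It stood at 7886, 8531 and 7586 RPM in Ver, against 6178, 6654 and 6864 RPM in Nor. All Ver libraries were above all Nor libraries, at a modest difference (log2 fold change 0.29, SE 0.0722, adjusted p = 0.00732 in edgeR). The sequence gma-MIR5368-p5_1ss6TC is labelled as the other arm of the same listed precursor. It had 701 to 922 RPM in Ver and 668 to 765 RPM in Nor, which overlapped (log2 fold change 0.19, adjusted p = 0.177 in edgeR). Without Ver 3 that sequence was called (log2 fold change 0.35, adjusted p = 0.0118 in edgeR).

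The second was bra-miR5654a, the only member that equals a B. rapa entry of miRBase. It stood at 5112, 5085 and 5003 RPM in Ver, against 3294, 3058 and 3261 RPM in Nor. The groups were far apart relative to their spread, with a log2 fold change of 0.66 (SE 0.0654, adjusted p = 1.93e-05 in edgeR). Its precursor lies on chromosome A05, minus strand, from 16908589 to 16908783 in the B. rapa v3.0 genome, and the table lists the other arm, bra-MIR5654a-p3_2ss6GT19TC, from the same precursor. That arm had 411, 482 and 350 RPM in Ver and 288, 233 and 288 RPM in Nor, and was also higher in Ver (log2 fold change 0.62, SE 0.144, adjusted p = 0.00465 in edgeR). The 3′ arm made up 7.55 ± 1.07% of the reads of both arms in Ver and 7.75 ± 0.573% in Nor (SD, n = 3 each, exact permutation p = 0.8).

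The largest fall among the abundant members was that of osa-miR5083_L+1_1ss21AT, registered from rice. It stood at 936, 709 and 696 RPM in Ver, against 2296, 2855 and 2596 RPM in Nor. The groups were far apart relative to their spread, and the log2 fold change was -1.72 (SE 0.133, adjusted p = 3.42e-06 in edgeR). The table places it on chromosome A02 (plus strand, 16547971 to 16548061) and on A03 (minus strand, 14551566 to 14551591).

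Few members belonged to the families known as triggers of phased small interfering RNAs or of immune receptor silencing in other plants. Of the 10 numbers on that list only MIR2275 and MIR1509 had members, with 1 sequence each. In grasses miR2275 starts phased small RNA production in anthers. The sequence here, zma-MIR2275b-p3_2ss3AG18AT, is 19 nt long and labelled as an arm that miRBase does not hold. It is therefore not listed as that mature miRNA. It stood at 823, 740 and 923 RPM in Ver, against 1215, 1424 and 1347 RPM in Nor, and fell without overlap (log2 fold change -0.68, SE 0.106, adjusted p = 0.000392 in edgeR). The MIR1509 sequence had 11 reads in Ver 3, 5 reads in Nor 3 and 0 elsewhere, too few for a test.

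Of the 6 sequences of miR3630-3p, an entry from grapevine (vvi), 4 were tested and 2 were called, both lower in Ver. The 21-nt vvi-miR3630-3p_L-1_1ss2TA had 619, 655 and 580 RPM in Ver and 959, 1080 and 973 RPM in Nor (log2 fold change -0.70, SE 0.0927, adjusted p = 0.00014 in edgeR). The 19-nt vvi-miR3630-3p_L-3, which starts 2 bases later, had 269, 178 and 199 RPM in Ver and 408, 499 and 421 RPM in Nor (log2 fold change -1.03, SE 0.163, adjusted p = 0.000431 in edgeR). The 20-nt vvi-miR3630-3p_L-2 had 318 to 379 RPM in Ver and 395 to 464 RPM in Nor and missed the threshold (log2 fold change -0.29, adjusted p = 0.0514 in edgeR). The 22-nt vvi-miR3630-3p_L-1R+1_1ss2TA missed it too, with 47, 21 and 26.5 reads in Ver and 82, 52.5 and 51.5 reads in Nor (log2 fold change -0.64, adjusted p = 0.0514 in edgeR).

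Adding the reads of all members with the same number gave 1 value per number, fitted within the whole table as a choice made after seeing the data. Here 358 features were tested and 64.0% were called. Of the 41 numbers 23 had enough reads, and 5 were higher, 11 lower and 7 not called. Higher in Ver were MIR5654 (log2 fold change 0.68), MIR6300 (0.67, and 1.06 with each set of identical values counted once), MIR4995 (0.56), MIR5368 (0.32) and MIR1919. Lower in Ver were MIR5083 (-1.70), MIR4234 (-1.58), MIR8005 (-1.17), MIR8176 (-1.15), MIR12139 (-1.08), MIR6483 (-0.86), MIR2275 (-0.66), MIR3630 (-0.65), MIR1528, MIR2931 and MIR8709. MIR6478, the second number by reads, had 4406, 4758 and 4634 RPM in Ver and 4212, 4300 and 4615 RPM in Nor (log2 fold change 0.07, adjusted p = 0.354 in edgeR). With DESeq2 size factors its adjusted p was 0.0306.

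**Figure D4:**
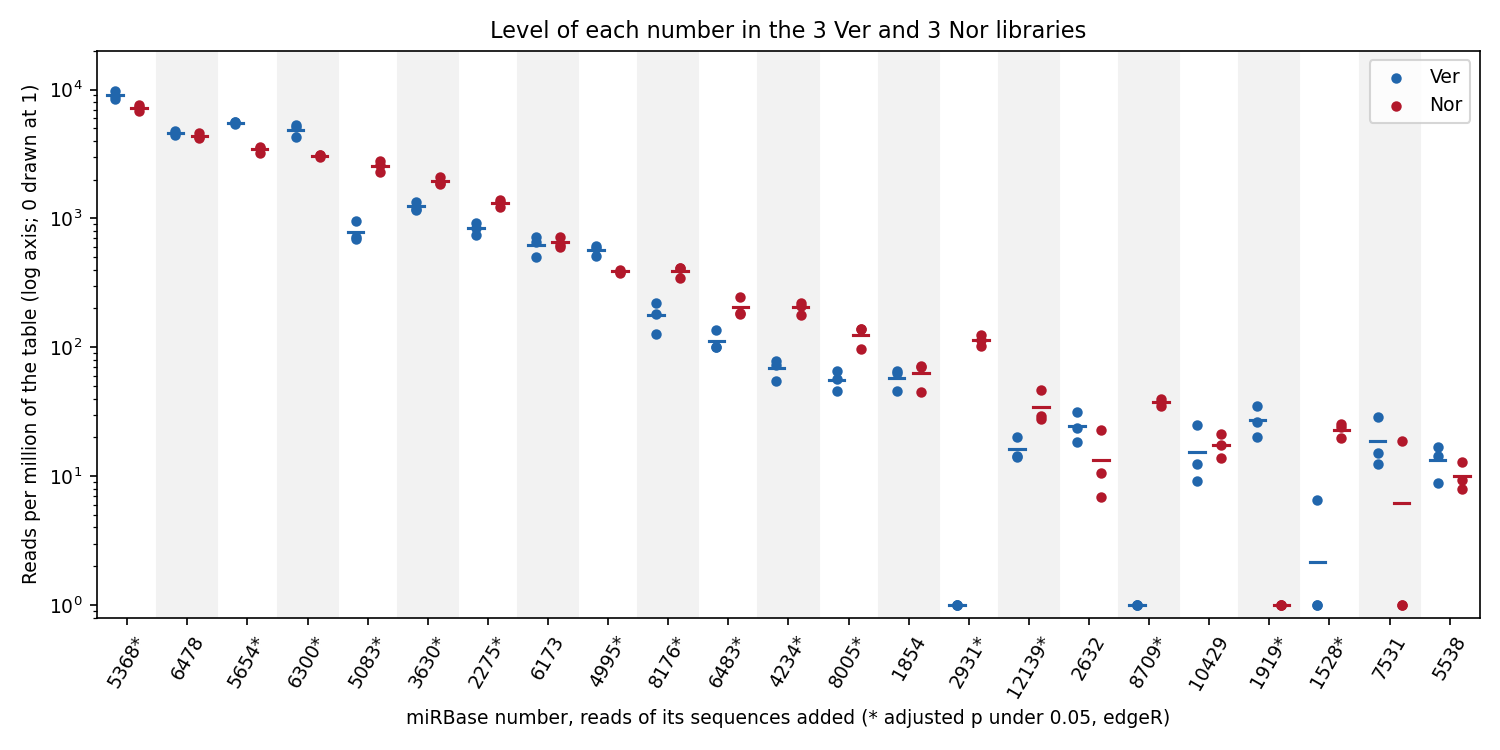
RPM (y axis, log scale, 0 drawn at 1) summed over the sequences of each miRBase number with enough reads for a test (x axis, 23 numbers in order of mean level). Points are libraries and short lines are means, with Ver in blue left of Nor in red, and a star marks an adjusted p under 0.05 in edgeR. MIR2931 and MIR8709 were at 0 in all Ver libraries and MIR1919 at 0 in all Nor libraries.

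The end variants of MIR6478 took different directions. Its members that begin at the same base form a ladder of 3′ ends, shown with the bases past the 19th in capitals.
ptc-miR6478_R-2: ccgaccttagctcagttgg
ptc-miR6478_R-1: ccgaccttagctcagttggT
ptc-miR6478_1ss21GA: ccgaccttagctcagttggTA
ptc-miR6478_R+1_1ss21GA: ccgaccttagctcagttggTAG
ptc-miR6478_R+2_1ss21GA: ccgaccttagctcagttggTAGA
ptc-miR6478_R+4_1ss21GA: ccgaccttagctcagttggTAGAGC
The 20-nt form took 13.7, 12.0 and 14.2% of the reads of these 6 forms in Ver, against 7.01, 8.51 and 7.75% in Nor. The 21-nt form took 25.2, 22.6 and 27.5% in Ver and 29.2, 29.4 and 28.0% in Nor, and the 25-nt form 5.28, 6.72 and 6.02% in Ver and 7.11, 7.99 and 7.32% in Nor. None of these 3 forms overlapped between groups (exact permutation p = 0.1 each, the smallest possible, and 0.188 adjusted over the 15 end variants compared). The 23-nt form was the main one, with 46.5 to 54.0% in Ver and 48.9 to 52.04% in Nor.

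In RPM, the 20-nt ptc-miR6478_R-1 had 563, 546 and 520 in Ver, against 281, 355 and 344 in Nor, and rose (log2 fold change 0.74, SE 0.115, adjusted p = 0.000391 in edgeR). The 23-nt ptc-miR6478_R+2_1ss21GA had 2075, 2449 and 1700 RPM in Ver and 2077, 2043 and 2309 RPM in Nor, which overlapped. Its log2 fold change was -0.05 (SE 0.126, adjusted p = 0.75 in edgeR) and 0.13 without Ver 3, the library in which the base 9 variant of this form had its 382 reads. The 21-nt ptc-miR6478_1ss21GA had 1034, 1025 and 1004 RPM in Ver and 1170, 1229 and 1240 RPM in Nor. It passed the threshold as lower (log2 fold change -0.25, adjusted p = 0.0186 in edgeR), but only 4 of the 20 alternatives that tested it kept that call, with adjusted p up to 0.235. Of 30 MIR6478 members 13 were tested (23.1% called, beside 61.0% of all tested), of which 1 was higher, 2 lower and 10 not called. The other lower one, ptc-miR6478_2ss20TC21GA, had 0, 5 and 0 reads in Ver and 24, 14 and 20 reads in Nor. It was at least 2.96-fold lower in Ver, computed against 5 reads per library (adjusted p = 0.0186 in edgeR, which 10 of 18 alternatives kept under 0.05, and 0.0511 without Ver 3).

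MIR6300 members differed by both ends. Of the 38 sequences 25 were tested, of which 12 were higher in Ver, 1 was lower and 12 were not called. The share called was below the 61.0% of all tested sequences, of which 28.1% were higher and 32.8% lower in Ver. Of the 12 higher calls, 6 were 1 set of identical values, described below. The forms that begin at base 1 or 2 of the miRBase sequence are shown with the seed in capitals.
gma-miR6300_R+1: gTCGTTGTagtatagtggt
gma-miR6300_R+5: gTCGTTGTagtatagtggtaagt
gma-miR6300_R+6: gTCGTTGTagtatagtggtaagta
gma-miR6300_L-1R+1: tCGTTGTAgtatagtggt
gma-miR6300_L-1R+5: tCGTTGTAgtatagtggtaagt
gma-miR6300_L-1R+8: tCGTTGTAgtatagtggtaagtatt
The 18-nt gma-miR6300_L-1R+1 showed the largest rise of these. It had 596, 557 and 494 RPM in Ver, against 122, 102 and 140 RPM in Nor (log2 fold change 2.18, SE 0.14, adjusted p = 1.04e-06 in edgeR). The 19-nt gma-miR6300_R+1, which has the same 3′ end and 1 more base at the start, had 458, 428 and 499 RPM in Ver and 255, 330 and 257 RPM in Nor (log2 fold change 0.72, adjusted p = 0.000981 in edgeR).

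The 23-nt gma-miR6300_R+5 had 692, 840 and 765 RPM in Ver, against 311, 362 and 406 RPM in Nor (log2 fold change 1.09, SE 0.125, adjusted p = 4.9e-05 in edgeR). The 25-nt gma-miR6300_L-1R+8 went the other way, with 70.5, 84.8 and 58.0 RPM in Ver and 102, 134 and 121 RPM in Nor (log2 fold change -0.74, SE 0.206, adjusted p = 0.012 in edgeR). As a share of the 6 forms, the 18-nt form took 26.9 ± 2.44% in Ver and 12.2 ± 2.13% in Nor, and the 25-nt form 3.47 ± 0.558% in Ver and 11.9 ± 0.810% in Nor (SD, n = 3 each, exact permutation p = 0.1 for both, 0.188 adjusted over 15).

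**Figure D5:**
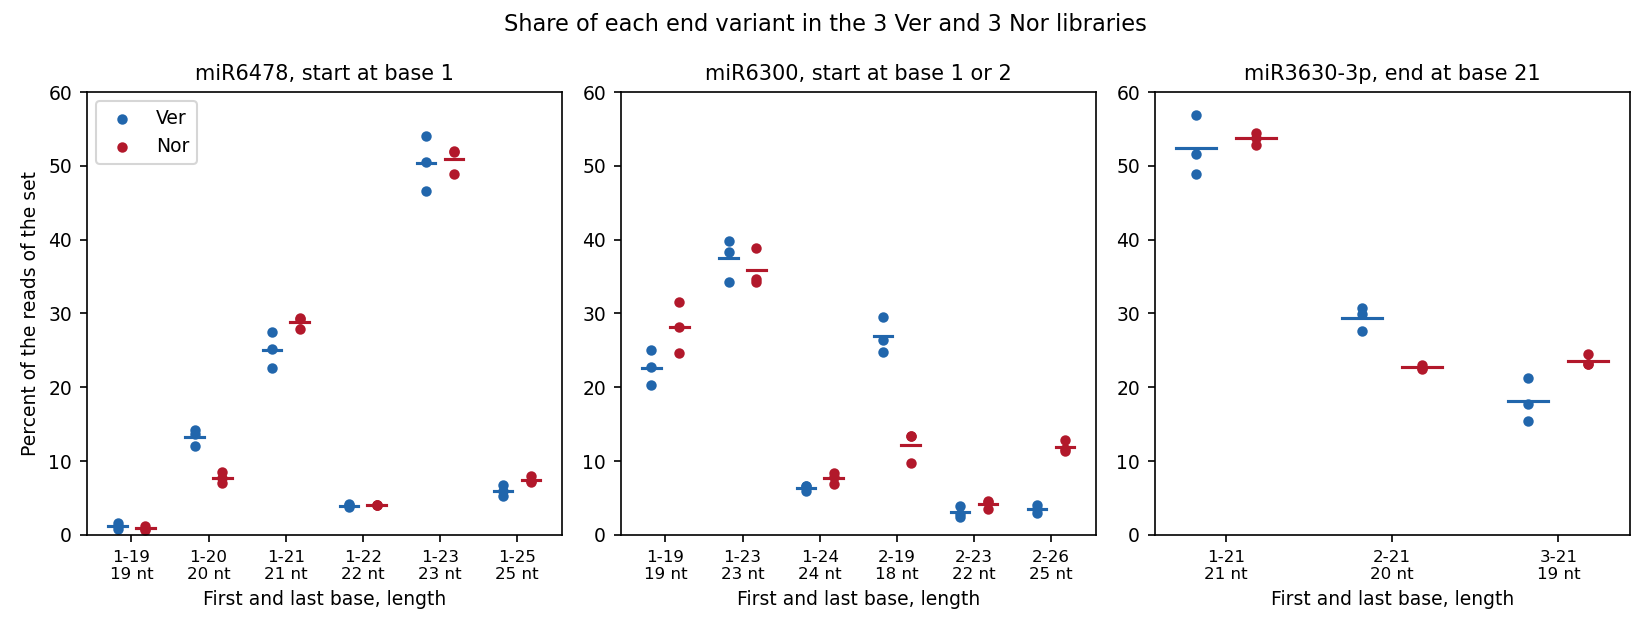
Percent of reads (y axis) on each end variant of miR6478, miR6300 and miR3630-3p (x axis, first and last base and length), with Ver in blue left of Nor in red. Points are libraries and short lines are means. The 20-nt miR6478 form and the 18-nt miR6300 form held a larger share in every Ver library than in any Nor library.

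Other MIR6300 members cannot be read as separate measurements. A set of 11 sequences on 17 rows carried the same values on every row, and another set of 6 sequences on 7 rows did too. The second set, which includes gma-MIR6300-p5_3, supplied 6 of the 12 higher calls of MIR6300. The reads of the 6 sequences added to 392, 455 and 350 in Ver and 308, 168 and 175 in Nor. For gma-MIR6300-p5_3 itself the level was 144, 216 and 176 RPM in Ver and 86.4, 65.1 and 67.4 RPM in Nor (log2 fold change 1.28, adjusted p = 0.000472 in edgeR). The set of 11 added to 1275, 1360 and 1130.5 reads in Ver and 1904, 1309 and 1334.5 reads in Nor, and none of its sequences was called. Of the remaining calls, gma-MIR6300-p3_2ss7AT18TA had 33, 36 and 17 reads in Ver and 12, 14 and 16 in Nor (log2 fold change 1.35, adjusted p = 0.0152 in edgeR, which 17 of 20 alternatives kept under 0.05). The last, gma-MIR6300-p3_1ss22AT, had 17, 15 and 17 reads in Ver and 0 in every Nor library, at least 4.16-fold higher against 5 reads per library.

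Together the numbers listed as matching structural RNA (MIR5368, MIR6300 and MIR6478 here) held 73 sequences, 41 of them tested, with 14 higher, 3 lower and 24 not called. That is 41.5% called, beside 61.0% of all tested, and 6 of the 14 higher calls were 1 set of identical values. Their median log2 fold change was 0.19, beside -0.19 for all tested. Of the members outside MIR6300 and MIR6478, which still include MIR5368, 32 were tested, with 5 higher, 15 lower and 12 not called and a median of -0.44. Their 62.5% called was close to the 61.0% of all tested. Whether members off the list also match structural RNA was not tested.

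A few scarce members were seen in a single group. The rice entry osa-MIR2931 belongs to the network of the study. Its sequence osa-MIR2931-p3_2ss5TA18AT had 0 reads in every Ver library, against 47, 47 and 40 reads in Nor, which is at least 6.97-fold lower when set against 5 reads per library (adjusted p = 4.94e-05 in edgeR). Its sequence osa-MIR2931-p3_2ss4TA19TC, which overlaps the first over most of its length, had 0 reads in every Ver library, against 64, 46.5 and 26 reads in Nor (at least 6.81-fold lower, adjusted p = 0.000102 in edgeR). A scarcer form, osa-MIR2931-p3_1ss5TA, had 0 reads in Ver and 5, 0 and 10 reads in Nor. The other member of that network, mtr-MIR2615a-p3_2ss8AC18GT, had 10, 10 and 6 reads in Ver and 0 in every Nor library, at least 2.17-fold higher, and was too scarce for the test.

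The cotton entry gra-MIR8709a-p3_1ss13CG also had 0 reads in every Ver library, against 38, 30 and 26 reads in Nor (at least 4.81-fold lower in Ver, adjusted p = 0.000159 in edgeR). The soybean entry gma-MIR1528-p5_2ss13TC18CT had 5, 0 and 0 reads in Ver and 20, 19 and 18 reads in Nor (at least 2.96-fold lower, adjusted p = 0.012 in edgeR, which 12 of 18 alternatives kept under 0.05). In the other direction sly-MIR1919a-p3_2ss6TC18GT, a tomato entry, had 27, 12 and 15 reads in Ver and 0 in Nor (at least 4.39-fold higher, adjusted p = 0.000734 in edgeR). The MIR2931, MIR8709a and MIR1528 sequences are 18 or 19 nt long and rich in A and T. Of the 19 members of at most 19 nt with at least 60% A and T, 10 were tested, 1 was higher, 6 lower and 3 not called, with a median log2 fold change of -1.33. The 7 calls of 10 tested stand beside 61.0% called of all tested sequences, where 32.8% were lower. Lengths and base composition were compared after their values were seen.

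The 10 members with Brassicaceae names came from miR5654 and from the Arabidopsis entries MIR4234, MIR8176 and MIR5645. Of these 5 were tested, with 2 higher (both arms of miR5654), 2 lower and 1 not called. The 24-nt aly-MIR4234-p3_2ss8AG23TC had 12.8, 29.9 and 24.6 RPM in Ver, against 126, 141 and 179 RPM in Nor, with a wide gap between the groups (log2 fold change -2.75, SE 0.303, adjusted p = 4.09e-05 in edgeR). Another sequence of that number, aly-MIR4234-p5, was at 28, 29 and 27 reads in Ver and 25, 39 and 20 in Nor and was not called (log2 fold change 0.34, adjusted p = 0.433 in edgeR). The 21-nt ath-MIR8176-p5 had 126, 220 and 181 RPM in Ver and 345, 415 and 414 RPM in Nor (log2 fold change -1.17, SE 0.188, adjusted p = 0.000492 in edgeR). Of the 65 tested members with names of other plants, 16 were higher, 16 lower and 33 not called. The share called was 80.0% for the 5 tested Brassicaceae members and 49.2% for the 65, beside 61.0% of all tested.

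The potato entry stu-MIR8005c-p3_1ss12AT holds the motif TTTAGGG, the unit of plant telomere repeats. It is shown with its seed in capitals.
stu-MIR8005c-p3_1ss12AT: aGGGTTTAgggtttagagtttagg
Searched on both strands, the motif was in 3 of the 139 members (2.16%), all MIR8005, and in 2 of the other 750 sequences (0.267%). The sequence had 38.5, 61.6 and 56.3 RPM in Ver and 67.7, 106 and 112 RPM in Nor, lower in Ver (log2 fold change -0.87, SE 0.278, adjusted p = 0.0218 in edgeR, which 13 of 20 alternatives kept under 0.05).

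Members of several numbers lay on the same stretch of chromosome A06, and 5 of these numbers are described here. Among the others, a MIR9479 member shared the position of MIR8709a (15304584 to 15304765). A MIR5538 member began at 15371106 and a MIR5032 member at 15394977. In the B. rapa v3.0 coordinates of the table, MIR6173 (15387565 to 15387678), MIR4995 (15391136 to 15391180) and MIR5368 (15392633 to 15392802) stood on the plus strand of chromosome A06. The same 3 stood on Scaffold0156 at 22453, 26024 and 27521, with the same distances of 3571 and 5068 bases from the start of MIR6173. MIR8709a and MIR6483 were also on both, 4955 bases apart on each. They were farther off, with starts at -82981 and -78026 bases from that of MIR6173 on A06 and at 70499 and 75454 bases from it on Scaffold0156. By reads summed over all sequences of a number, wherever they were listed, MIR5368 and MIR4995 were higher in Ver. MIR6173 was not called, and MIR6483 and MIR8709a were lower. For MIR4995 the sequence gma-MIR4995-p5_1ss21GC had 328, 274 and 315 RPM in Ver and 188, 170 and 209 RPM in Nor (log2 fold change 0.70, adjusted p = 0.00105 in edgeR). Its other sequence, gma-MIR4995-p3_2ss15GC20TC, had 211, 188 and 111 reads in Ver and 194, 163 and 144 reads in Nor and was not called (log2 fold change 0.37, adjusted p = 0.0873 in edgeR). For MIR6483 the 20-nt hbr-MIR6483-p5_1ss7TC had 84.6, 101 and 84.4 RPM in Ver and 146, 191 and 155 RPM in Nor (log2 fold change -0.86, adjusted p = 0.00184 in edgeR). A shorter form whose sequence starts 1 base later, hbr-MIR6483-p5_1ss6TC, had 11, 4.5 and 9 reads in Ver and 30, 37 and 21.5 in Nor (log2 fold change -1.55, adjusted p = 0.0137 in edgeR, and 0.113 without Nor 2). On A06 this shorter form was listed elsewhere, at 15081872 to 15081903, and not at the MIR6483 position described above.

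MIR6173 had 2 sequences of different length, and the difference between them was not tested. The 21-nt hbr-miR6173_L+1 had 469, 378 and 554 RPM in Ver and 411, 472 and 384 RPM in Nor, which overlapped (log2 fold change 0.14, adjusted p = 0.414 in edgeR, and 0.0447 without Ver 2). The 18-nt hbr-MIR6173-p5_1ss1AT, which shares its first 18 bases with the longer form, had 181, 120 and 162 RPM in Ver and 213, 263 and 225 RPM in Nor (log2 fold change -0.59, adjusted p = 0.0138 in edgeR, which 9 of 20 alternatives kept under 0.05). Among the lowest fold changes of the called members was also aof-MIR12139-p5_2ss7AT17GA, an entry of asparagus, with 11, 12 and 8 reads in Ver and 28, 35 and 22 reads in Nor (log2 fold change -1.11, adjusted p = 0.0333 in edgeR, which 9 of 19 alternatives kept under 0.05, and 0.0774 without Ver 3).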

How the data were processed

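Small RNA of 6 libraries was analysed, 3 Ver and 3 Nor, grouped by the labels. Members and gene lists were chosen with earlier results of these data known. The authors removed adapters, junk reads, common RNA families and repeats, and matched unique sequences of 18 to 25 nt by BLAST to miRBase 21.0 and the B. rapa v3.0 genome. That release is the one named in the methods, but numbers such as MIR12139 may belong to a later one, so statements on what miRBase holds follow the table. The BLAST version and the rule by which reads were divided over rows are not given in the sources used here. The deposited raw values are estimated counts, and the deposited normalized values are a signal, the raw value times 1 factor per library, which served only as an alternative scaling.

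Rows of a sequence were added and rounded. edgeR 4.0.16 in R 4.3.3 (TMM, filterByExpr, group as the only term, biological coefficient of variation 0.146) tested 405 of the 872 sequences with reads, with Benjamini-Hochberg adjustment over all 405. RPM is reads per 1000000 of the TMM-scaled total of the table. Values by number came from a separate fit with its own TMM factors. Their RPM and fold changes thus differ slightly from those of single sequences. Without molecular identifiers, reads cannot be taken as independent molecules. Shares were compared by two-sided exact permutation tests in Python 3. No 2 replicates agreed within sampling noise (chi-square per degree of freedom 3.01 to 11.7). The fit was checked on simulated data. Sequences were named if they were among the 10 most abundant, among the 10 highest or 10 lowest called fold changes without overlap, on a fixed list, or in the network of the study, and others were added after their values were seen. Alternatives used DESeq2 1.42.0, limma 3.58.1, other scalings and filters, and each replicate left out.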

Additional observations from a re-analysis of the deposited data

How the results depend on the processing

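The count of 36 called members stayed between 24 and 39 over the alternatives run, and no called member changed direction under another scaling. The 18 lower calls became 11 with DESeq2, 11 under the cutoffs used by the study (log2 fold change over 1 in size and unadjusted p of 0.05 or less), and 10 to 17 with 1 library left out (10 without Nor 2, 11 without Nor 3). Scaling by the factors of the authors moved the median over all sequences by 0.13 on the log2 scale and gave 23 higher and 16 lower members. Restricting to rows whose names met the rule changed nothing, since no member had other names. With the number as a replicate block 30 members were called, 18 higher and 12 lower. Over 405 sequences the deviations of Ver and Nor libraries with the same number correlated at 0.13, -0.08 and 0.03, so the numbers were not treated as pairs.

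For ptc-miR6478_R+2_1ss21GA, which was not called, the log2 fold change was 0.048 with DESeq2 size factors, 0.085 with the factors of the authors, 0.011 with no low-count filter, 0.0089 with DESeq2, 0.074 with limma at pseudocounts of 1 and 0.1, 0.014 with the highest row, 0.019 with identical values counted once, and -0.10 to 0.13 with 1 library left out. The cause was not tested.

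Differences in class shares, Ver minus Nor in percentage points, changed when each detected sequence counted once: Brassicaceae -3.22, grasses -1.40, other plants -3.37, 20 nt -0.22, 21 nt 1.25, 22 nt 3.65, 24 to 25 nt -5.63, arms absent from miRBase -2.33, class gp2b 1.80 and CCA ends -1.33. Without the most abundant member they were 7.40 for Brassicaceae, -12.3 for grasses, 0.54 for 20 nt, 0.80 for 22 nt, 4.33 for 23 nt, -0.38 for 24 to 25 nt, -0.88 for absent arms, -9.01 for gp2b and 8.52 for CCA ends. As reported the differences were 4.66, -9.52 and -4.79 for Brassicaceae, grasses and other plants. Without the 13 base 9 variants, 16 members were seen in Ver only, in place of 26. The 69 members that did not pass the filter had a median of 9 reads in their highest library, which limits what could be detected for most of them.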
